A study of Homo sapiens with 4 samples.

Results

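The C/EBP transcription factors and the genes that act directly on them were followed in OCI-AML3, an established human acute myeloid leukaemia cell line that carries a mutated NPM1 gene (NPM1c+). The 10 genes were chosen by name and function, and they and the gene lists below were chosen with earlier results of these data known. They comprise the 5 C/EBP genes of the basic leucine zipper (bZIP) type CEBPA, CEBPB, CEBPD, CEBPE and CEBPG and the unrelated CCAAT-binding gene CEBPZ. The others are the dimer partner DDIT3, which encodes CHOP, and the tribbles genes TRIB1, TRIB2 and TRIB3. All 10 were found by symbol among the 67062 genes in the count table. PIG-LONA cells carried a retroviral pMSCV-PIG vector whose RNA polymerase II promoter drives the long noncoding RNA LONA, and PIG-EMPTY cells carried the vector with no insert. In both, the PGK promoter drives puromycin resistance and GFP, cells were sorted for GFP, and each vector was brought in by 2 separate transductions of the 1 line. Poly(A) RNA of each transduction gave 1 library, 4 in all, with 30181550 and 38358442 counts in the PIG-LONA libraries and 29819572 and 32350832 counts in the PIG-EMPTY libraries.

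The bZIP members bind DNA as dimers with each other or with other bZIP proteins, so the balance between them sets which dimers can form. C/EBPalpha is needed for the step to the granulocyte and monocyte lineage, C/EBPbeta and C/EBPdelta act in monocyte, emergency granulocyte and inflammatory programmes, and C/EBPepsilon acts late in granulocyte maturation. C/EBPgamma, encoded by CEBPG, lacks a transactivation domain, CHOP is a stress-induced partner that diverts C/EBP proteins from their usual sites, and the pseudokinases TRIB1 and TRIB2 bring C/EBPalpha to the ubiquitin ligase COP1 for degradation.

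The study compared LONA expression with the empty vector, and its title places the comparison in myeloid differentiation. CEBPB and CEBPD were lower in PIG-LONA cells, at 0.763 and 0.840 of the PIG-EMPTY level, and no member passed the test in the other direction. CEBPA, the most abundant member per kilobase of exon, did not pass, with a fold of 0.987 and a 95% interval of 0.930 to 1.05. CEBPG, CEBPZ, DDIT3, TRIB1, TRIB2 and TRIB3 did not pass either, and CEBPE was too low to test. Of the 9 members tested, 2 were called lower, 0 higher and 7 did not pass (edgeR quasi-likelihood test, two-sided, Benjamini-Hochberg adjusted p under 0.05). At an unadjusted edgeR p under 0.05, 3 were lower and 1 higher. The share of all tested genes at that unadjusted threshold was not counted, so these numbers have no background. At adjusted p under 0.05, DESeq2 called 1 lower and limma-voom 2 lower, and both called 0 higher. Over all 15918 genes tested, edgeR called 3.51% lower and 2.93% higher at adjusted p under 0.05. The median log2 fold change, PIG-LONA over PIG-EMPTY, was -0.02 over the 9 members and 0.00 over all tested genes. Both PIG-LONA libraries lay outside the range of both PIG-EMPTY libraries for 7 of the 9 members, 4 below and 3 above, against 48.0% of all tested genes in either direction.

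**Figure D1:**
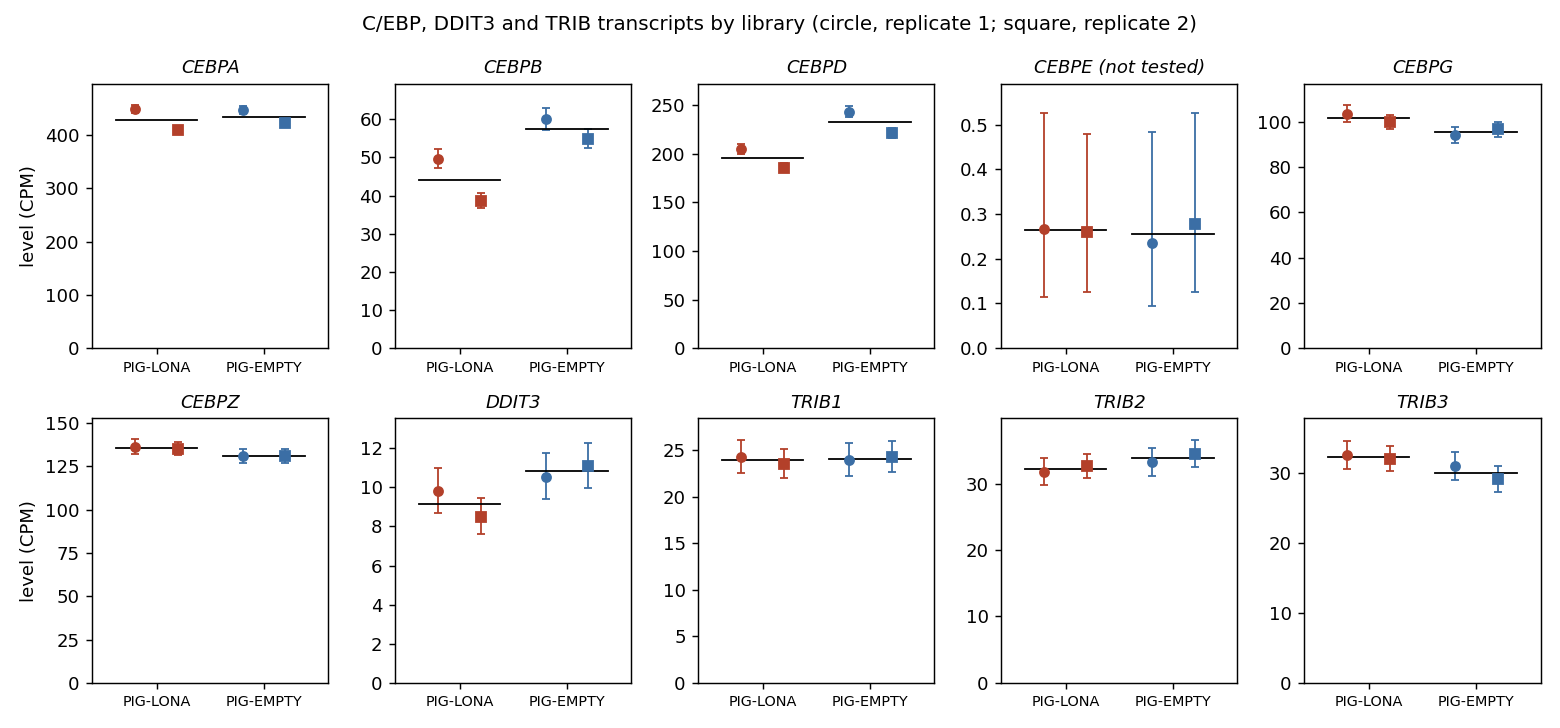
Level of each member in each library in CPM, counts scaled to the adjusted library total (vertical axes from 0, a scale of its own per gene), PIG-LONA left and PIG-EMPTY right. Points are libraries with exact Poisson 95% intervals, which cover counting error only, and lines are group means; for CEBPB and CEBPD both PIG-LONA points lie below both PIG-EMPTY points.

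The libraries carried myeloid leukaemia markers at unequal levels, with little KIT, CD34 or MPO. CD33 stood at 98.4 to 99.9 CPM in PIG-LONA and 100 to 104 CPM in PIG-EMPTY libraries, while KIT had 0 to 2 counts and CD34 at most 1.23 CPM. MPO had 2.1 to 2.78 CPM in PIG-LONA and 2.59 to 2.79 CPM in PIG-EMPTY. HOXA9, HOXA10 and MEIS1 had 52.6 to 59.8, 185 to 189 and 41.1 to 42.9 CPM in PIG-LONA. In PIG-EMPTY they had 56.4 to 57.5, 182 to 188 and 42.7 to 43 CPM. Of 11 tested leukaemia markers, ANPEP and LYZ were lower in PIG-LONA, and the summed level was 2611 to 2630 CPM in PIG-LONA and 2643 to 2672 CPM in PIG-EMPTY. Most of that sum was NPM1, at 1770 to 1810 CPM in PIG-LONA and 1770 CPM in PIG-EMPTY, so it says little about the other markers. Here CPM scales each count to the TMM-adjusted total of its library. LONA itself was not matched to a gene of the table by name, so its level gives no check of the labels here. Of 16 monocyte and macrophage markers, 12 were tested and 10 of them were lower in PIG-LONA. The summed level of the 16 was 278.8 to 295 CPM in PIG-LONA against 466.2 to 467.1 CPM in PIG-EMPTY. VCAN alone had 111 to 129 CPM in PIG-LONA and 199 to 205 CPM in PIG-EMPTY. MSR1 was at 0, and MRC1 and FCGR3A had at most 1 count. Lymphoid markers summed to 121 to 132.8 CPM in PIG-LONA against 148 to 154.1 CPM in PIG-EMPTY, nearly all of it IL7R, with CD3D, CD3E, CD2 and MS4A1 at 0. Erythroid and megakaryocyte markers summed to 13.3 to 13.42 CPM in PIG-LONA and 13.3 to 13.4 CPM in PIG-EMPTY, with 6 of 10 at 0. Stromal and epithelial markers summed to 27.25 to 27.36 CPM in PIG-LONA and 33.28 to 34.42 CPM in PIG-EMPTY, nearly all of it PECAM1, with EPCAM at 0. In bulk RNA, fewer cells of a type and less RNA per cell cannot be told apart, and the part of these markers in the member results was not tested. Of the 799 tested genes on chromosome 6, 226 were higher in PIG-LONA, with a median log2 fold change of 0.17; no member lies there.

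Start sequences are shown for CEBPA, the lineage factor, for CEBPB, which was called lower, and for CEBPG and DDIT3, whose windows hold motif matches, as stretches from 250 bases before to 50 bases after an annotated start (RefSeq, GRCh38.p14). RefSeq windows were at hand for 8 of the 10 members, 13 windows in all, and CEBPD and TRIB1 are named only. The sequences are printed 5′ to 3′ on the gene's own strand, in lower case, with motif matches in capitals.
CEBPA (chr19:33302485-33302784, minus strand): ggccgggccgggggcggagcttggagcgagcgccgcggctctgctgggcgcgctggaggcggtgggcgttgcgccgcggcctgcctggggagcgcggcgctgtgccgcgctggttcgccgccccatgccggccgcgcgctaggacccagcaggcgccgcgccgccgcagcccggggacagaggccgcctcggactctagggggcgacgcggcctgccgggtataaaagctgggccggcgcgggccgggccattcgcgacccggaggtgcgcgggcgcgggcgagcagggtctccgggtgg
CEBPB (chr20:50190580-50190879, plus strand): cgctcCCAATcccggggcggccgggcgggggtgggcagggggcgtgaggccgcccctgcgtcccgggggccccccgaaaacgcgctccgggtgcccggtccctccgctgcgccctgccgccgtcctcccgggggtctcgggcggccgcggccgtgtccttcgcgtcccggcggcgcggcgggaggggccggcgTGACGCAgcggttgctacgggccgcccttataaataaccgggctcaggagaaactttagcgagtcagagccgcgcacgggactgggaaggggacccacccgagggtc
CEBPG, upstream start (chr19:33373459-33373758, plus strand): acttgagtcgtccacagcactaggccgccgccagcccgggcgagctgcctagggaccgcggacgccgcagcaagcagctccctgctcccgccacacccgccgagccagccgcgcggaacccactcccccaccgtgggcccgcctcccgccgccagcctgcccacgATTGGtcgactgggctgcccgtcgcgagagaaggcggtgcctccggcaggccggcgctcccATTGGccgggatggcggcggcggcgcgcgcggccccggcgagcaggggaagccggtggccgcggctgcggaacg
CEBPG, downstream start (chr19:33373863-33374162, plus strand): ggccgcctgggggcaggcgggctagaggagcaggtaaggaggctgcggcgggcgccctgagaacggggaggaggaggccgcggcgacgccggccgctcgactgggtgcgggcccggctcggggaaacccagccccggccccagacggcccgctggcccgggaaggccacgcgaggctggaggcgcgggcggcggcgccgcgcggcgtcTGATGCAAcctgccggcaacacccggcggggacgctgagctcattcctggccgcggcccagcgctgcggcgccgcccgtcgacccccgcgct
DDIT3 (chr12:57520465-57520764, minus strand): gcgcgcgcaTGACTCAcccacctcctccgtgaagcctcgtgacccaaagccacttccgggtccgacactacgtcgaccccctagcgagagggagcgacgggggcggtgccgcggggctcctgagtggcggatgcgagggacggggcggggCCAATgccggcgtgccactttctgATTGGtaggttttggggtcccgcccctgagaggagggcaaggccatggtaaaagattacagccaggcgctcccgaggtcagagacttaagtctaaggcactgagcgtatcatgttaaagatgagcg
Both strands were searched for 6 motifs. The C/EBP site was spelled TTGCNNAA and is present in 10.5% of the 35116 RefSeq windows. The composite of C/EBP and ATF was spelled TGATGNAA and is present in 3.62% of windows. The cyclic AMP response element was spelled TGACGTCA and is present in 1.85%, and its variant TGACGCA in 2.47%. The AP-1 site was spelled TGACTCA and is present in 4.95% of windows, and the CCAAT box in 34.6%. The printed CEBPB window, that of the downstream of its 2 starts, held TGACGCA 57 bases and CCAAT 245 bases upstream. The window of the other CEBPB start held the same CCAAT box, just past that start, and no other match. The downstream CEBPG window held the composite TGATGCAA 42 bases upstream, and the upstream CEBPG window held ATTGG, the CCAAT box on the opposite strand, 85 and 24 bases upstream. The DDIT3 window held TGACTCA 241 bases upstream, CCAAT 100 bases upstream and ATTGG 76 bases upstream. The CEBPE window held an AP-1 match 100 bases upstream of its start, on the opposite strand. No match was found in the CEBPA window or in those of CEBPZ, TRIB2 and TRIB3, and none of the matches overlapped another. A match is a run of letters and does not show binding.

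CEBPA (ENSG00000245848.3, chromosome 19, 33299934 to 33302564, minus strand, GRCh38) encodes the lineage factor whose loss blocks granulocyte formation. It had 449 and 409 CPM in PIG-LONA replicates 1 and 2, against 446 and 422 CPM in PIG-EMPTY replicates 1 and 2. The highest and the lowest library were both PIG-LONA, so the groups overlapped. The log2 fold change was -0.02 ± 0.04 (SE, n = 2 per group; edgeR adjusted p = 0.878, 95% interval -0.11 to 0.07). Per kilobase of annotated exon, its level was 163 ± 10.8 CPM in PIG-LONA and 165 ± 6.38 CPM in PIG-EMPTY (mean ± SD, n = 2 each). By mean CPM per kilobase it ranked 156 among 12209 protein-coding genes. The sign was not stable. Where 1 library of a group is left out, the spread comes from the other group's pair alone and the lone library is assumed to vary like it, so these p-values do not show stability. Leaving out PIG-LONA replicate 1 gave -0.09 (edgeR adjusted p = 0.0161), leaving out PIG-LONA replicate 2 gave 0.05, and leaving out PIG-EMPTY replicate 1 gave 0.02.

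CEBPB (chromosome 20, 50190734 to 50192689, plus strand) encodes the factor of macrophage genes and of emergency granulocyte formation. It had 49.6 and 38.6 CPM in PIG-LONA replicates 1 and 2, against 60.05 and 54.9 CPM in PIG-EMPTY replicates 1 and 2. Both PIG-LONA libraries were lower than both PIG-EMPTY libraries, and PIG-LONA replicate 2 was the lowest by a wide margin. The Poisson intervals of the libraries were 47.1 to 52.2 and 36.7 to 40.7 CPM in PIG-LONA and 57.3 to 62.9 and 52.4 to 57.5 CPM in PIG-EMPTY, so the gap within PIG-LONA exceeded counting error. The means were 44.1 ± 7.76 CPM in PIG-LONA and 57.5 ± 3.62 CPM in PIG-EMPTY (SD, n = 2 each), and the log2 fold change was -0.39 ± 0.08 (SE, by edgeR; adjusted p = 0.00294, 95% interval -0.55 to -0.23). The PIG-LONA replicates differed by 0.36 on the log2 scale and the PIG-EMPTY replicates by 0.13, so the group difference was close in size to the gap within PIG-LONA. The call was lost in the DESeq2 Wald test (adjusted p = 0.394) and in edgeR without the low-count filter (adjusted p = 0.123), with log2 fold changes of -0.38 in both. Without PIG-LONA replicate 2 the log2 fold change was -0.21, with the spread then taken from the PIG-EMPTY pair alone.

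CEBPD (chromosome 8, 47736909 to 47739086, minus strand) encodes a factor induced by cytokines and during myeloid maturation. It had 205 and 186 CPM in PIG-LONA replicates 1 and 2, against 243 and 222 CPM in PIG-EMPTY replicates 1 and 2. Both PIG-LONA libraries were lower, and the replicates of each group lay about equally far apart, 0.139 on the log2 scale in PIG-LONA and 0.132 in PIG-EMPTY. The means were 195 ± 13.3 CPM in PIG-LONA and 232 ± 15.1 CPM in PIG-EMPTY (SD, n = 2 each), and the log2 fold change was -0.25 ± 0.05 (SE, by edgeR; adjusted p = 0.00186, 95% interval -0.35 to -0.15). The call was lost in edgeR without the low-count filter (adjusted p = 0.0756) and without PIG-EMPTY replicate 1 (adjusted p = 0.0753, log2 fold change -0.18).

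CEBPA, CEBPB and CEBPD are short genes rich in G and C, with 65.9%, 66.2% and 70% in their longest annotated transcript, against 39.6% to 62.9% in the other members. Among genes of at least 10 CPM, those of 65% to 70% GC had a median log2 difference of -0.06 between the PIG-LONA replicates (2 minus 1) and of -0.02 between the PIG-EMPTY replicates, over 252 genes. Their median log2 fold change between the groups was -0.01. The 18 genes above 70% GC, next to CEBPD, had median log2 differences of -0.12 between the PIG-LONA replicates and -0.11 between the PIG-EMPTY replicates, and a median log2 fold change of -0.08 between the groups. With the GC trend of each library removed, CEBPB stood at -0.37 (edgeR adjusted p = 0.00205) and CEBPD at -0.22 (edgeR adjusted p = 0.00115).

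CEBPE (chromosome 14, 23117304 to 23119616, minus strand), the late granulocyte factor, had 8 and 10 counts in PIG-LONA replicates 1 and 2, against 7 and 9 counts in PIG-EMPTY replicates 1 and 2. That is 0.267 and 0.260 CPM in PIG-LONA against 0.235 and 0.277 CPM in PIG-EMPTY, and the groups overlapped. It fell under the low-count filter; fitted without the filter, its log2 fold change was 0.04 ± 0.45 (SE, n = 2 per group; edgeR adjusted p = 0.979). A difference of the size seen in CEBPB was therefore not detectable at this depth.

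CEBPG (chromosome 19, 33373330 to 33382686, plus strand), next to CEBPA, had 104 and 100.0 CPM in PIG-LONA replicates 1 and 2, against 94.2 and 96.8 CPM in PIG-EMPTY replicates 1 and 2. Both PIG-LONA libraries were the higher ones. The log2 fold change was 0.09 ± 0.04 (SE, n = 2 per group), with an edgeR adjusted p of 0.244 and an unadjusted p of 0.0422. DDIT3 (chromosome 12, 57516588 to 57521737, minus strand) had 9.79 and 8.50 CPM in PIG-LONA replicates 1 and 2, against 10.5 and 11.1 CPM in PIG-EMPTY replicates 1 and 2. Both PIG-LONA libraries lay below, by less than the gap within PIG-LONA for the closest pair. The log2 fold change was -0.25 ± 0.10 (SE, n = 2 per group; edgeR adjusted p = 0.157, 95% interval -0.46 to -0.05). It matched that of CEBPD in size at a wider error, on 293 to 360 counts per library. It moved with the library left out, to -0.35 (edgeR adjusted p = 0.0205) without PIG-LONA replicate 1 and to -0.14 (adjusted p = 0.566) without PIG-LONA replicate 2.

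CEBPZ (chromosome 2, 37201612 to 37231713, minus strand) encodes a protein of ribosome assembly that shares the C/EBP name but has no leucine zipper. It had 136 and 135 CPM in PIG-LONA replicates 1 and 2, against 131 and 131 CPM in PIG-EMPTY replicates 1 and 2. The PIG-LONA libraries were the higher ones by a small margin, with a log2 fold change of 0.05 ± 0.04 (SE, n = 2 per group; edgeR adjusted p = 0.504).

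Among the tribbles genes, TRIB1 (chromosome 8, 125430321 to 125438405, plus strand) had 24.3 and 23.5 CPM in PIG-LONA replicates 1 and 2, against 23.9 and 24.3 CPM in PIG-EMPTY replicates 1 and 2. TRIB2 (chromosome 2, 12716889 to 12742734, plus strand) had 31.7 and 32.6 CPM in PIG-LONA, against 33.3 and 34.5 CPM in PIG-EMPTY. TRIB3 (chromosome 20, 362835 to 397559, plus strand), a stress-induced inhibitor of AKT and a partner of CHOP, had 32.6 and 32.1 CPM in PIG-LONA, against 31.0 and 29.1 CPM in PIG-EMPTY. The groups overlapped for TRIB1, while the PIG-LONA libraries lay below for TRIB2 and above for TRIB3. The log2 fold changes were -0.01 ± 0.06 for TRIB1, -0.07 ± 0.06 for TRIB2 and 0.10 ± 0.06 for TRIB3 (SE, n = 2 per group), with edgeR adjusted p of 0.946, 0.546 and 0.368. Their 95% intervals ran from -0.15 to 0.12, from -0.19 to 0.05 and from -0.02 to 0.23, in the same order.

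**Figure D2:**
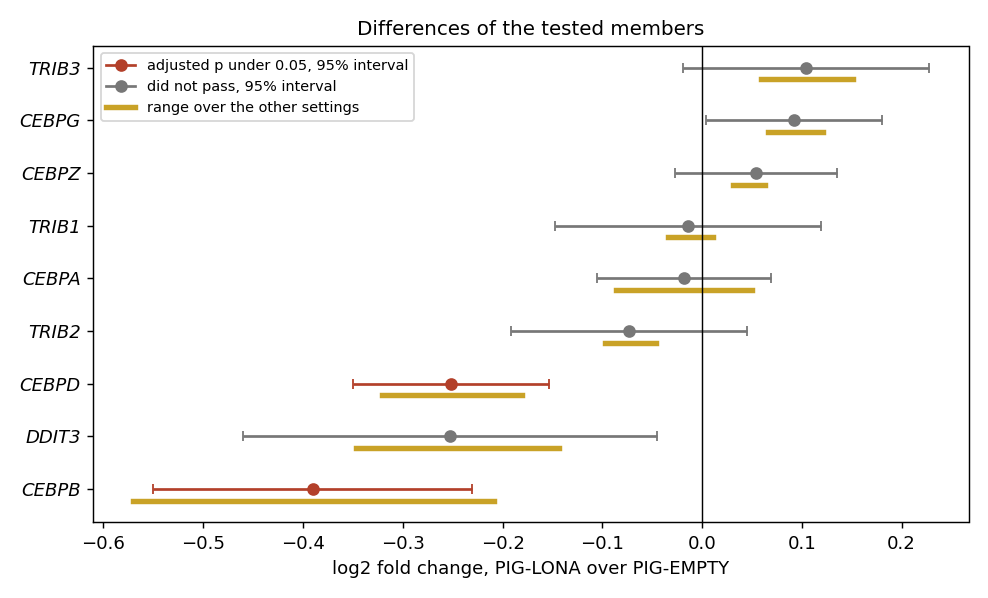
Log2 fold change (horizontal axis, PIG-LONA over PIG-EMPTY) of the 9 tested members with 95% intervals, in red where adjusted p was under 0.05. The lower bars give the range over the other processing settings, including each library left out. Those of CEBPB and CEBPD stay below 0, which was largely given by groups that did not overlap. Those of CEBPA and TRIB1, whose groups overlapped, cross it.

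Per kilobase of exon, the order of the members was CEBPA, CEBPD, CEBPZ, then CEBPB and CEBPG, then TRIB3, DDIT3, TRIB2 and TRIB1, with CEBPE last. In PIG-EMPTY, CEBPB stood above CEBPG, at 29.4 ± 1.85 against 21.7 ± 0.417 CPM per kilobase (SD, n = 2 each). In PIG-LONA the values were 22.6 ± 3.97 for CEBPB and 23.1 ± 0.611 CPM per kilobase for CEBPG, which did not differ beyond their spread. DDIT3 and TRIB2 were also neighbours within their spread in PIG-LONA, at 7.0 ± 0.696 and 7.02 ± 0.138 CPM per kilobase.

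The make-up of the bZIP members was described as each gene's share of their summed CPM per kilobase, a share of transcripts and not of protein. CEBPA took 53.1% and 53.6% in PIG-LONA replicates 1 and 2, against 49.7% and 50% in PIG-EMPTY replicates 1 and 2. CEBPD took 29.2% and 29.4% in PIG-LONA, against 32.7% and 31.7% in PIG-EMPTY. CEBPB took 7.90% and 6.82% in PIG-LONA, against 8.99% and 8.75% in PIG-EMPTY. The shares of CEBPB and CEBPD were the lower ones in both PIG-LONA libraries, while the CEBPA share was the higher one there although the CEBPA level overlapped. Shares of a fixed total are tied, so lower CEBPB and CEBPD beside a like CEBPA level raise the CEBPA share by arithmetic. The shares, and the ratios below, restate the member levels and are not a separate result. CEBPG took 7.33% and 7.82% in PIG-LONA, against 6.25% and 6.84% in PIG-EMPTY, and DDIT3 2.33% and 2.25% in PIG-LONA, against 2.36% and 2.64% in PIG-EMPTY. The ratio of CEBPA to CEBPB was 6.73 and 7.86 in PIG-LONA, against 5.52 and 5.72 in PIG-EMPTY. The ratio of CEBPA to CEBPD was 1.82 in both PIG-LONA libraries, against 1.52 and 1.58 in PIG-EMPTY. With 2 libraries per group these shares and ratios were not tested.

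**Figure D3:**
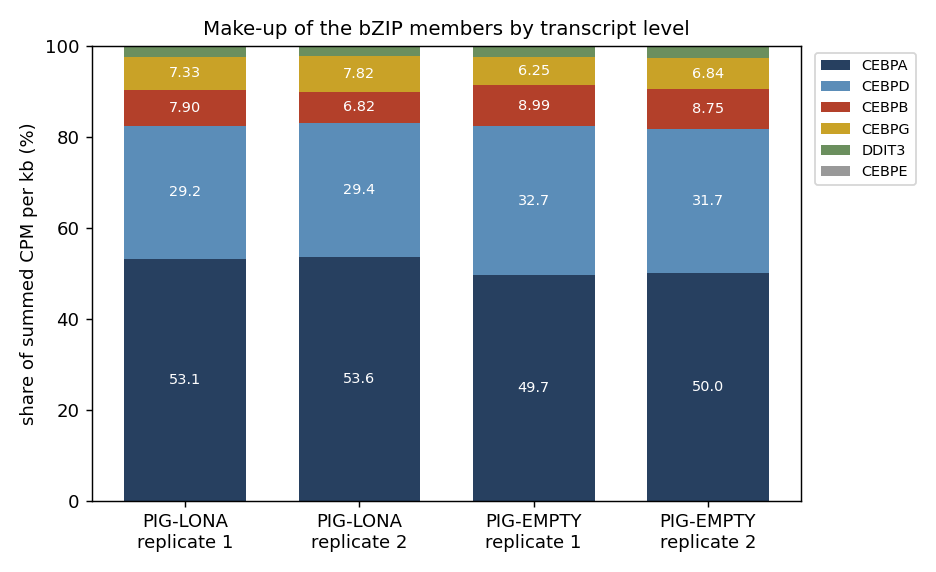
Share of each bZIP member in the summed CPM per kilobase (vertical axis, percent) in each library, PIG-LONA left and PIG-EMPTY right. CEBPA fills 53.1% and 53.6% in PIG-LONA against 49.7% and 50% in PIG-EMPTY; the CEBPE share is too small to be seen.

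Neighbouring transcripts did not pass the test. CEBPB-AS1, which overlaps CEBPB by 765 bases on the opposite strand, had 1.30 and 1.46 CPM in PIG-LONA, against 1.28 and 1.6 CPM in PIG-EMPTY. CEBPA-DT, transcribed away from CEBPA, had 10.6 and 10.1 CPM in PIG-LONA, against 10.2 and 10.1 CPM in PIG-EMPTY. CEBPZOS, opposite CEBPZ, had 59.3 and 58.9 CPM in PIG-LONA, against 60.2 and 61.9 CPM in PIG-EMPTY. The log2 fold changes were -0.06 ± 0.24 for CEBPB-AS1, 0.02 ± 0.09 for CEBPA-DT and -0.05 ± 0.05 for CEBPZOS (SE, n = 2 per group; edgeR adjusted p = 0.941, 0.944 and 0.655). CEBPA overlaps 2 antisense genes, ENSG00000267580 by 1235 bases and ENSG00000267727 by 662 bases, with 14 to 79 counts per library. DDIT3 overlaps MARS1 by 982 bases and MBD6 by 1028 bases on the opposite strand. The strand setting of the counting is not given in the sources used here, so reads of such pairs, CEBPA, CEBPB, CEBPZ and DDIT3 included, cannot be assigned with certainty.

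The genes whose levels over the 4 libraries were most like those of CEBPB, by Euclidean distance of centred log2 CPM among 9352 genes, were AGMAT (0.0737), TAF10 (0.0847) and ENSG00000268518 (0.103). For CEBPD they were ITGB2-AS1 (0.0283), PFKFB4 (0.0409) and PPP1R14B (0.0464). These genes were picked for likeness to a called member over the same 4 libraries. A like fold change was therefore built in, and their test results are not independent of the members. Of these 6, AGMAT, ENSG00000268518, ITGB2-AS1 and PPP1R14B also passed the test, at log2 fold changes of -0.37 ± 0.10, -0.36 ± 0.08, -0.26 ± 0.05 and -0.21 ± 0.05 (SE, n = 2 per group; edgeR adjusted p = 0.0266, 0.0113, 0.0016 and 0.00976).

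The other dimer partners of the bZIP class could change which C/EBP dimers form. Of 31 tested, 3 fell, 0 rose and 28 did not pass, with a median log2 fold change of -0.04. FOS, an AP-1 subunit, stood at 27.3 and 26.6 CPM in PIG-LONA, against 35.5 and 34.8 CPM in PIG-EMPTY. BATF, an AP-1 family partner of C/EBP proteins, stood at 38.9 and 36.9 CPM in PIG-LONA, against 44.8 and 46.9 CPM in PIG-EMPTY. For FOS and BATF the log2 fold changes were -0.38 ± 0.06 and -0.28 ± 0.05 (SE, n = 2 per group; edgeR adjusted p = 0.000244 and 0.00271), with both PIG-LONA libraries lower. The BATF call was lost in edgeR without the low-count filter (adjusted p = 0.0531) and without PIG-EMPTY replicate 2 (adjusted p = 0.0699).

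Genes known as C/EBP targets did not move as 1 group. Of 20 tested myeloid precursor genes bound by C/EBPalpha, 3 rose, 6 fell and 11 did not pass, with a median log2 fold change of -0.01. The list, which includes MYC, E2F1, SOX4 and ID1, was not split by direction of regulation. Its counts and median therefore do not measure C/EBPalpha activity. PRTN3, the primary granule protease proteinase 3, rose to 189 and 180 CPM in PIG-LONA, against 159 and 153 CPM in PIG-EMPTY (log2 fold change 0.25 ± 0.04, SE, n = 2 per group; edgeR adjusted p = 0.000436). AZU1 and GFI1 also rose, at log2 fold changes of 0.15 ± 0.04 and 0.13 ± 0.04 (edgeR adjusted p = 0.0153 and 0.0346), and neither passed at adjusted p under 0.01. FCGR1A, the high-affinity IgG receptor of monocytes, fell to 48.3 and 44.5 CPM in PIG-LONA, against 61.9 and 68.4 CPM in PIG-EMPTY (log2 fold change -0.49 ± 0.06, edgeR adjusted p = 1.1e-05). CSF1R, the receptor for macrophage colony-stimulating factor, fell to 3.04 and 3.87 CPM in PIG-LONA, against 5.84 and 7.39 CPM in PIG-EMPTY (log2 fold change -0.92 ± 0.15, edgeR adjusted p = 0.000594). LYZ, lysozyme, had 26.0 and 27.1 CPM in PIG-LONA, against 52.9 and 34.2 CPM in PIG-EMPTY, and was called lower at -0.70 ± 0.12 (edgeR adjusted p = 0.00064). That value was -0.36 without PIG-EMPTY replicate 1, and the call was lost in the DESeq2 Wald test (adjusted p = 0.261) and in edgeR without the low-count filter (adjusted p = 0.0937). SPI1, ID2 and CD14 were the other precursor genes that fell.

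Of 22 secondary granule and late neutrophil genes bound by C/EBPepsilon, 13 passed the low-count filter; 10 of these fell, 0 rose and 3 did not pass. This list was chosen with earlier results of these data known, so its counts are not an independent test. The median log2 fold change of the 13 was -0.67, and CEBPE itself had at most 10 counts in any library. TCN1, a vitamin B12 carrier of secondary granules, and CHI3L1, a chitinase-like granule protein, pointed the other way, at 0.48 ± 0.15 and 0.45 ± 0.14 (SE, n = 2 per group; edgeR adjusted p = 0.057 and 0.0646), and did not pass. MMP9, gelatinase B, stood at 38.5 and 36.2 CPM in PIG-LONA, against 69.5 CPM in both PIG-EMPTY libraries (log2 fold change -0.90 ± 0.05, SE, n = 2 per group; edgeR adjusted p = 3.8e-10). S100A9 and S100A8, the subunits of calprotectin, had log2 fold changes of -0.67 ± 0.05 and -0.70 ± 0.08 (edgeR adjusted p = 5e-08 and 8.16e-06). CYBB, the catalytic subunit of the phagocyte oxidase, stood at 471 and 502 CPM in PIG-LONA, against 593 and 608 CPM in PIG-EMPTY (log2 fold change -0.30 ± 0.04, edgeR adjusted p = 2.59e-05). NCF1, MMP8, ITGAM, FCAR and LYZ also fell, and NCF1 shares sequence with near-identical pseudogenes, which makes its value uncertain. FCAR passed narrowly, at -0.54 ± 0.15 on the log2 scale (edgeR adjusted p = 0.0382). LYZ, S100A9 and ITGAM also stand among the monocyte markers whose summed level was also lower in PIG-LONA. CRISP3, OLFM4 and PGLYRP1 of the granule genes were at 0 in all 4 libraries.

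The acute phase and cytokine genes tied to C/EBPbeta and C/EBPdelta had 16 tested members, of which 1 rose, 4 fell and 11 did not pass, with a median log2 fold change of -0.13. CCL2, a monocyte chemokine, stood at 7.05 and 6.76 CPM in PIG-LONA, against 11.7 and 10.5 CPM in PIG-EMPTY (log2 fold change -0.69 ± 0.10, SE, n = 2 per group; edgeR adjusted p = 0.000231). PPARG, the lipid and macrophage nuclear receptor, stood at 14.3 and 13.2 CPM in PIG-LONA, against 17.9 and 19.6 CPM in PIG-EMPTY (log2 fold change -0.46 ± 0.08, edgeR adjusted p = 0.00101). HP, haptoglobin, fell as well, to 3.83 ± 0.345 CPM in PIG-LONA against 5.78 ± 1.58 CPM in PIG-EMPTY (SD, n = 2 each). Its log2 fold change was -0.61 ± 0.17 (edgeR adjusted p = 0.028). SOD2, the mitochondrial superoxide dismutase, rose by 0.22 ± 0.05 on the log2 scale (edgeR adjusted p = 0.0122) and lies on chromosome 6. It did not pass in the DESeq2 Wald test (adjusted p = 0.0799), in edgeR without the low-count filter (adjusted p = 0.0852) or in edgeR without PIG-EMPTY replicate 1, PIG-EMPTY replicate 2 or PIG-LONA replicate 2 (adjusted p = 0.058, 0.173 and 0.0505). IL6, CSF3 and FGG were at 0 in all 4 libraries.

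**Figure D4:**
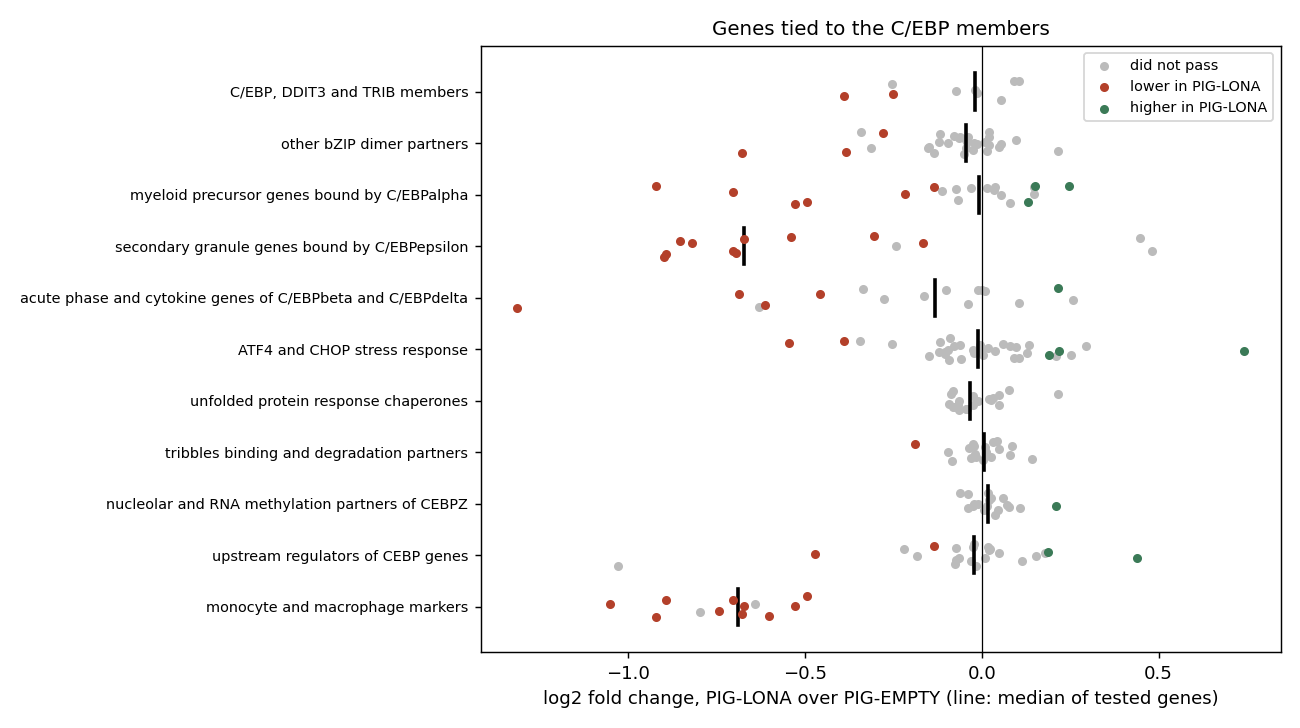
Log2 fold change (horizontal axis, PIG-LONA over PIG-EMPTY) of every tested gene in the member list and in 10 lists tied to it. Points are genes, in red where lower and in green where higher at adjusted p under 0.05, and bars are list medians; the medians of the granule and monocyte lists stand at -0.67 and -0.69 and those of most other lists near 0.

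ATF4 and CHOP lead the stress pathway to which DDIT3, TRIB3 and CEBPG belong. Of 36 tested genes of the ATF4 and CHOP stress response, 3 rose, 2 fell and 31 did not pass, with a median log2 fold change of -0.01. The list holds the upstream EIF2AK kinases and EIF2S1, and ATF4 and DDIT3 themselves, and is not a list of targets only. At an unadjusted edgeR p under 0.05, 8 were higher and 6 lower. The share of all tested genes at that threshold was not counted, so these numbers show no excess in the list. ATF4, the factor itself, stood at a log2 fold change of -0.02 ± 0.03 (SE, n = 2 per group; edgeR adjusted p = 0.801). STC2, a secreted stress glycoprotein, rose to 8.62 and 9.36 CPM in PIG-LONA, against 5.14 and 5.63 CPM in PIG-EMPTY (log2 fold change 0.74 ± 0.11, edgeR adjusted p = 0.000296). PHGDH and PSAT1, the enzymes that open serine synthesis, also rose; PHGDH stood at 0.22 ± 0.05 on the log2 scale (edgeR adjusted p = 0.00581), which did not pass without the low-count filter (adjusted p = 0.0669) or without PIG-EMPTY replicate 2 (adjusted p = 0.173). SLC7A11, the cystine transporter, fell to 21.7 and 22.2 CPM in PIG-LONA, against 32.8 and 31.4 CPM in PIG-EMPTY (log2 fold change -0.55 ± 0.06, edgeR adjusted p = 1.12e-05), and CEBPB was the other. Of 20 chaperone and other unfolded protein response genes, 0 passed in either direction in edgeR, DESeq2 or limma-voom. The list also holds ATF6, ERN1 and XBP1, which are not chaperones. At an unadjusted edgeR p under 0.05, 2 of the 20 were higher and 1 lower, again without a share over all tested genes. HSPA5 (BiP) stood at -0.09 ± 0.03 and CANX (calnexin) at 0.08 ± 0.03 (edgeR adjusted p = 0.109 and 0.210).

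Of 20 tribbles binding and degradation partners, 1 fell, 0 rose and 19 did not pass. COP1, the ligase that TRIB1 and TRIB2 recruit, stood at a log2 fold change of -0.03 ± 0.04 (SE, n = 2 per group, by edgeR; adjusted p = 0.79). Of 18 nucleolar and RNA methylation partners of CEBPZ, 1 rose and 17 did not pass; that was WTAP, a subunit of the m6A methyltransferase complex on chromosome 6, at 0.21 ± 0.04 (edgeR adjusted p = 0.00452), which did not pass without PIG-EMPTY replicate 1 (adjusted p = 0.142).

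Among 23 tested upstream regulators of CEBP genes, 2 rose, 2 fell and 19 did not pass. FLT3, the receptor kinase whose active form is known to restrain C/EBPalpha, rose to 49.4 and 51.5 CPM in PIG-LONA, against 37.0 and 37.5 CPM in PIG-EMPTY (log2 fold change 0.44 ± 0.05, SE, n = 2 per group; edgeR adjusted p = 2.04e-05). TAL1, a blood stem cell factor, fell to 17.7 and 19.0 CPM in PIG-LONA, against 25.7 and 25.4 CPM in PIG-EMPTY (log2 fold change -0.47 ± 0.07, edgeR adjusted p = 0.000154). EGR1, a monocyte-lineage zinc finger factor, rose by 0.19 ± 0.05 and SPI1, which encodes PU.1, fell by 0.13 ± 0.04 on the log2 scale (edgeR adjusted p = 0.0229 and 0.0346). Neither passed in the DESeq2 Wald test (adjusted p = 0.14 and 0.0992) or in edgeR without the low-count filter (adjusted p = 0.096 and 0.158), without PIG-EMPTY replicate 1 (0.0977 and 0.22) or without PIG-EMPTY replicate 2 (0.345 and 0.461). SPI1 also did not pass without chromosome 6 genes (edgeR adjusted p = 0.0549) or with the GC trend removed (edgeR adjusted p = 0.0518).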

How the data were processed

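Per the labels' protocols, RNA had an integrity number above 9 and libraries of poly(A) RNA followed the NEBNext Ultra II Directional protocol. FastQC 0.11.4, STAR 2.5, HTSeq and build hg38 are named in the submitters' processing notes; the sources used here give neither the annotation release nor the strand setting. The table deposited by the authors holds raw counts per Ensembl gene, 1 column per library. Symbols came from a table of gene names for 60357 genes and from GENCODE 29 for 273 more; genes without a symbol held 0.0157% of the counts. Positions, exon lengths and the GC content of each gene's longest transcript came from GENCODE 29 on GRCh38.

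filterByExpr (minimum count 10, minimum total 15) left 15918 of the 29600 genes with a count. edgeR 4.0.16 in R 4.3.3 was used: TMM scaling, dispersions from estimateDisp, glmQLFit and glmQLFTest, group as the only term, Benjamini-Hochberg adjustment over all tested genes. SEs are the fitted change over the square root of its F statistic. The biological coefficient of variation was 2.95%. Replicates of a group differed beyond counting noise, with a chi-square per gene of 4.67 in PIG-LONA and 1.76 in PIG-EMPTY, so all 4 libraries were kept. Poisson intervals cover counting error only, since reads had no molecular identifiers.

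The members and gene lists were chosen with earlier results of these data known. Named were all members, their neighbouring transcripts, up to 4 called genes of smallest p per list (or 2 as values where none passed), and the 3 genes most like each called member with a mean of at least 10 CPM. AZU1, GFI1, ID2, CD14, PSAT1, HP, ATF4, COP1, TCN1, CHI3L1 and the other granule genes were named after their values were seen. Some genes that the rule names are not reported here. Some genes stand in more than 1 list. Alternatives were other scalings, DESeq2 1.42.0, limma-voom 3.58.1, the legacy edgeR form, other filters and thresholds, a fit blocked on the replicate number, fits without each library, no chromosome 6 genes and, added after the data were seen, removal of the GC trend.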

Additional observations from a re-analysis of the deposited data

How the results depend on the processing

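The numbers of genes called lower and higher in PIG-LONA were 558 and 467; they were 254 and 219 with the DESeq2 Wald test, 194 and 140 without a filter on low counts, 300 and 228 at adjusted p under 0.01, and 219 were higher without chromosome 6 genes. Leaving out 1 library gave 309 to 1109 lower and 157 to 1222 higher. These fits leave 1 group with a single library, assumed to vary like the other group's pair. The 2 members called lower were 1 with DESeq2, 0 without the filter and 1 to 4 with 1 library left out; the 4, without PIG-LONA replicate 1, were CEBPA, CEBPB, CEBPD and DDIT3. CEBPB and CEBPD kept their direction under all settings. Both PIG-LONA libraries lay below both PIG-EMPTY libraries for these members, so leaving 1 library out could hardly reverse it. The replicate block gave 603 lower and 498 higher genes and the same number of members, 2 lower; replicates of equal number deviated together only weakly (r = 0.0965 over 9352 genes, 2 pairs), so the numbers were not taken as pairs.

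Values that did not pass changed sign in 5 genes. With 1 library left out the log2 fold change ran from -0.086 to 0.050 for CEBPA, from -0.035 to 0.011 for TRIB1, from -0.0094 to 0.060 for CEBPA-DT, from -0.20 to 0.12 for CEBPB-AS1 and from -0.067 to 0.47 for ITGA2B. With the GC trend removed CEBPA stood at 0.00145. Of 29 called genes named outside the members, 20 were called under every setting.

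Without the filter, calls per list were 2 lower and 1 higher for C/EBPalpha-bound, 6 lower for granule, 0 higher for cytokine, 1 lower and 1 higher for ATF4 and CHOP, 0 lower for tribbles partner, and 1 lower and 1 higher for upstream regulator genes. DESeq2 gave 3 lower C/EBPalpha-bound, 0 higher cytokine, 1 lower ATF4 and CHOP, 0 lower tribbles partner, and 1 lower and 1 higher upstream regulator genes. Adjusted p under 0.01 gave 1 higher C/EBPalpha-bound, 0 higher cytokine, 0 lower tribbles partner, and 1 lower and 1 higher upstream regulator genes. Without chromosome 6 genes, 0 cytokine and 0 CEBPZ partner genes were higher and 1 upstream regulator was lower, as was 1 with the GC trend removed; the block gave 1 higher granule gene. With 1 library left out, the ranges were 0 to 1 higher for other bZIP genes; 4 to 7 lower and 1 to 5 higher for C/EBPalpha-bound; 8 to 10 lower and 0 to 2 higher for granule; 0 to 1 higher for cytokine; 2 to 5 lower and 1 to 5 higher for ATF4 and CHOP; 0 to 4 lower and 0 to 1 higher for chaperone; 0 to 2 lower for tribbles partner; 0 to 2 higher for CEBPZ partner; and 1 to 3 lower and 1 to 3 higher for upstream regulator genes. The cause of these moves was not tested. Depth limits CEBPE most, at 7 to 10 counts per library.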
